A study of Mus musculus with 6 samples.

Results

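The doublecortin family was represented in this mouse data set by 3 of 15450 named genes, Dcx, Dclk1 and Dclk2, which were chosen by gene name and held 5 of 26334 named transcript rows: 1 of Dcx, 3 of Dclk1 and 1 of Dclk2. All 3 genes were present in the deposited table and none was lost to a filter of the present work. The libraries came from retinas of mice aged about 3 to 4 weeks when the experiment began. Eyes of the treated group received an adeno-associated virus with Sox11 (AAV-Sox11), a transcription factor of developing neurons, and those of the control group a virus labelled AAV-PLAP (AAV-Control). The optic nerve was crushed in both groups, so no uncrushed eye entered the comparison, and cells were taken 3 days after the crush, 2 weeks being the stated time under virus. Live cells carrying the surface protein Thy1 were sorted as retinal ganglion cells, whose axons leave the eye in the optic nerve. Each library pooled 3 retinas of 3 animals, there were 3 libraries per group (A, B and C), and the libraries of a letter were prepared on the same day. The sources used here do not name the promoter that drove the viral cargo. Sox11 itself had 131, 111 and 100.3 in controls A, B and C and 179, 234 and 284 with AAV-Sox11, without overlap, which was 2.00-fold higher (95% interval 1.46 to 2.76, limma adjusted p = 0.0504) and just missed the threshold of 0.05.

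Doublecortin-family proteins bind microtubules through paired doublecortin domains, stabilising the lattice and bundling filaments. Dcx is carried by newborn, migrating neurons and is a standard marker of immature neurons, and its loss in humans causes lissencephaly and subcortical band heterotopia. Dclk1 and Dclk2, its close paralogs, join the doublecortin domains to a serine/threonine kinase domain related to the calcium/calmodulin-dependent kinases. Dclk1 also makes shorter proteins from alternative promoters and ends, among them doublecortin-like, which has the microtubule-binding part without the kinase, and a kinase form without the doublecortin domains. Dclk1 and Dcx overlap in function in axon growth and neuronal migration.

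The family's shared part can be read from the coding sequences of the annotated transcripts (GENCODE M21, GRCm38). The Dcx row encoded 366 codons and was aligned with the doublecortin-like row of Dclk1 (363 codons) over 1067 coding bases with 71.2% identity, and with Dclk2 (756 codons) over 1044 bases with 70.7% identity. The sources used here do not say how reads that match more than 1 member were treated.

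Dcx, the founding microtubule-binding protein of the family, rose with AAV-Sox11. Its normalized value was 114, 128 and 66.6 in control libraries A, B and C, and 272, 403 and 374 in AAV-Sox11 libraries A, B and C. The lowest AAV-Sox11 library was more than the highest control, so the groups did not overlap. Dcx went from 103 ± 32.3 to 350 ± 68.7 (SD, n = 3), a 3.46-fold rise with a 95% interval of 2.24 to 5.34, and a log2 fold change of 1.79 ± 0.27 (SE, limma adjusted p = 0.0247). Of all genes tested, 2.32% were called in that fit, 0.796% as higher with AAV-Sox11. In the authors' deposited table the Dcx row had a log2 fold change of 1.76 and a false discovery rate of 7.69e-08. Of the rows in the authors' deposited table, 6.83% had a rate under 0.05, and 1.93% had it with a higher AAV-Sox11 value. In sorted bulk RNA, a larger share of cells that carry a transcript and more transcript per cell cannot be told apart, and this holds for each gene below.

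**Figure D1:**
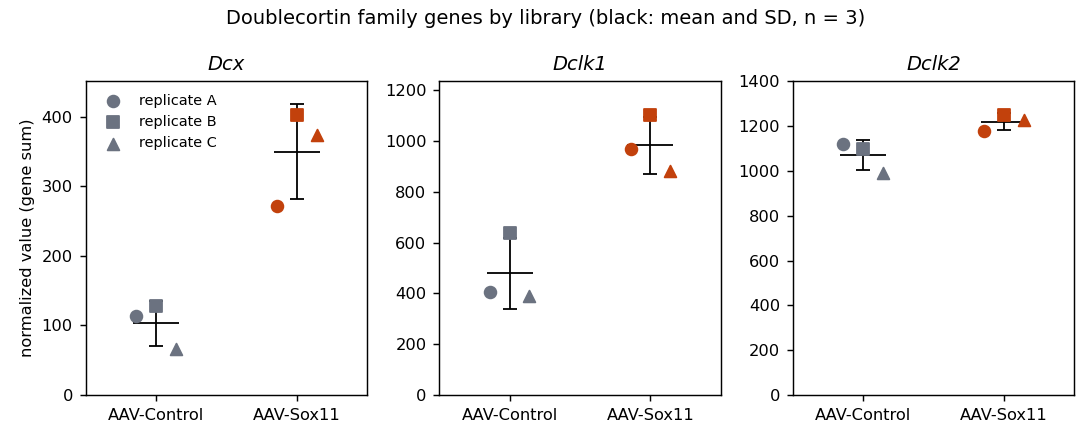
Normalized value (vertical axis, sum over transcript rows) of Dcx, Dclk1 and Dclk2 in each library, with the replicate letter as the marker shape and the mean and SD of the 3 libraries of a group in black. The AAV-Sox11 libraries lie above all control libraries in the 3 panels, by a wide margin for Dcx (272 to 403 against 66.6 to 128) and by a narrow one for Dclk2 (1177 to 1251 against 993 to 1120.4).

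Dclk1, whose transcripts include forms with and without the kinase, also rose. Its summed value was 407, 639 and 391 in control libraries A, B and C, and 967, 1104 and 881 in AAV-Sox11 libraries A, B and C. Control B was the highest control by far, yet it stayed below each AAV-Sox11 library. The gene went from 479 ± 139 to 984 ± 112 (SD, n = 3), a 2.10-fold rise (95% interval 1.53 to 2.88, log2 fold change 1.07 ± 0.20, SE, limma adjusted p = 0.0426).

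Dclk2, the other kinase-bearing paralog, did not pass the test. It had 1120.4, 1097 and 993 in the controls and 1177, 1251 and 1229 with AAV-Sox11. The groups were narrowly apart, with means of 1070.2 ± 68.0 and 1219 ± 38.1 (SD, n = 3). The fold change was 1.14 with a 95% interval of 0.999 to 1.30 (log2 fold change 0.19 ± 0.08, SE, limma adjusted p = 0.208), so the data allow anything from no difference to a rise of that upper bound. Groups that did not overlap, with higher AAV-Sox11 values, were found for 3 of 3 family genes and for 16.2% of all genes. Over both directions, 30.7% of all genes did not overlap. In the deposited values, 1 of the directions in which the 6 libraries can differ has almost no spread. The SDs and intervals above leave out the spread along it. Its squared weight was 18.4%, 57.7% and 12.5% on AAV-Sox11 A, B and C, and 0.00272%, 5.04% and 6.37% on controls A, B and C. The SDs of the AAV-Sox11 group are therefore the most affected.

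Leaving out single libraries ended several of these calls. Dcx missed 0.05 in limma without control A (adjusted p = 0.0600) and without AAV-Sox11 A, B or C (0.0696, 0.135 and 0.102), and Dclk1 without control A or C (0.0966 and 0.0597) and without AAV-Sox11 A, B or C (0.117, 0.185 and 0.112). Dcx kept its call without control B or C, and Dclk1 without control B. The log2 fold change stayed positive in these fits, from 1.51 to 1.97 for Dcx and from 0.94 to 1.30 for Dclk1. Without any 1 AAV-Sox11 library the fit called 0 genes, with 1942 to 3120 genes at an unadjusted p under 0.05, so that every limma call named below ends there too. Entering the direction without spread as a covariate gave adjusted p = 0.0626 for Dcx and 0.0896 for Dclk1, at the same fold changes, and 0 called genes (2582 at an unadjusted p under 0.05). In the fit over transcript rows with that covariate, the Dcx row kept its call (adjusted p = 0.0386).

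**Figure D2:**
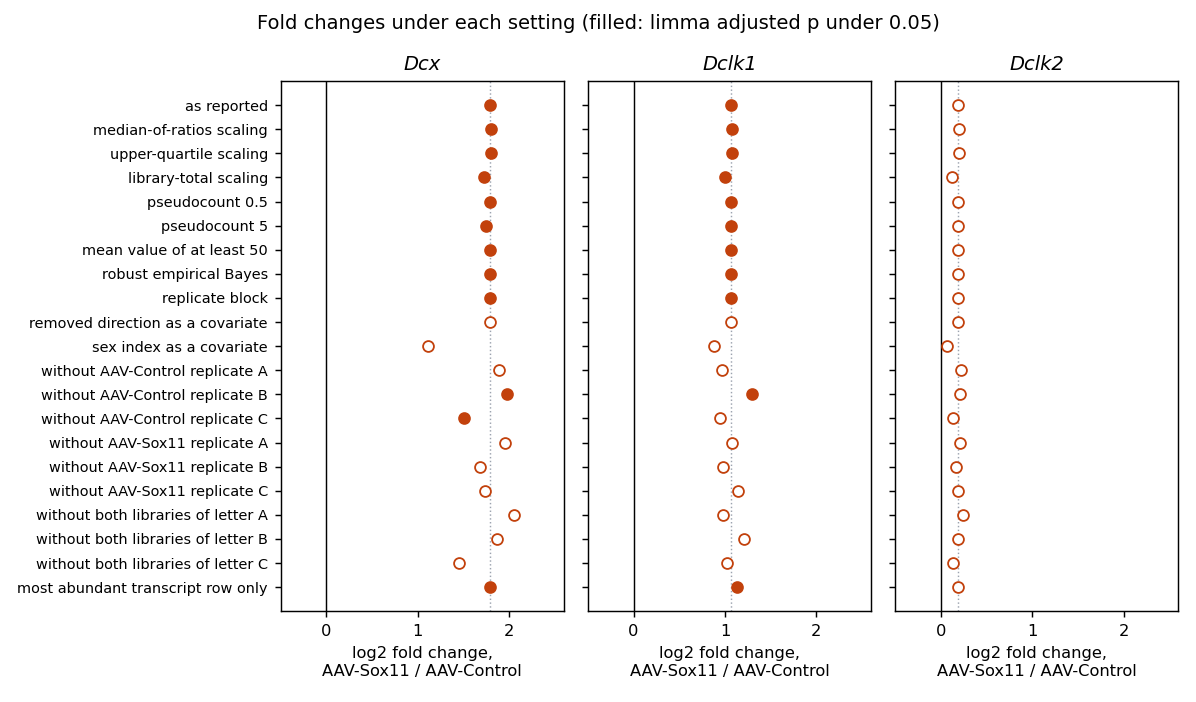
Log2 fold change (horizontal axis, AAV-Sox11 over AAV-Control) of each family gene under each setting named on the vertical axis, filled where the limma adjusted p was under 0.05. Every point is above 0, and the points for Dcx run from 1.11 to 2.06, those for Dclk1 from 0.89 to 1.30 and those for Dclk2 from 0.07 to 0.25.

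Dcx lies on the X chromosome, and the pools differed in the level of sex-linked transcripts. An index of Xist, the RNA of the inactive X, minus the mean of 4 Y-linked genes (log2 scale) was 6.82, 6.79 and 5.26 in controls A, B and C and 6.86, 8.11 and 8.45 in AAV-Sox11 A, B and C. Per the labels, the groups were approximately balanced for sex. In the A pair, where the index was nearly equal, Dcx was 2.38-fold higher with AAV-Sox11. It was 3.12-fold higher in the B pair and 5.55-fold higher in the C pair, where the index differed most. When the index entered the fit, Dcx had a log2 fold change of 1.11 (limma adjusted p = 0.128), and 0 genes were called (2702 at an unadjusted p under 0.05). Dclk1, on chromosome 3, was 2.37-fold, 1.73-fold and 2.25-fold higher in pairs A, B and C. Its log2 fold change with the index was 0.89 (limma adjusted p = 0.241). Dclk2, also on chromosome 3, was 1.05-fold, 1.14-fold and 1.24-fold higher in the same pairs. The index itself did not overlap between the groups, at most 6.82 in the controls and at least 6.86 with AAV-Sox11. Differences that go with the index and those that go with the virus therefore cannot be told apart in these libraries.

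The responses of the members were compared through their ratios within each library. The log2 ratio of Dcx to Dclk2 was -3.29, -3.08 and -3.88 in the controls and -2.11, -1.63 and -1.71 with AAV-Sox11. The groups did not overlap, and the ratio was 3.03-fold higher with AAV-Sox11 (exact permutation p = 0.1, two-sided, the smallest that 3 against 3 libraries can give). The log2 ratio of Dclk1 to Dclk2 was -1.46, -0.78 and -1.34 in the controls and -0.28, -0.18 and -0.48 with AAV-Sox11, 1.84-fold higher, with the same exact permutation p of 0.1. The log2 ratio of Dcx to Dclk1 was -1.83, -2.31 and -2.54 in the controls and -1.83, -1.45 and -1.23 with AAV-Sox11. There AAV-Sox11 A was almost level with control A, and the mean difference was 0.72, a 1.65-fold higher ratio (exact permutation p = 0.1). Adjusted over these 3 ratios by Benjamini-Hochberg, each p stayed 0.1. This exact test over 3 against 3 libraries cannot go below that value, so it cannot call a difference between members at 0.05.

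Per kilobase of spliced transcript, the order of levels was Dclk2, Dclk1, Dcx in every library. On this scale the control and AAV-Sox11 levels (SD, n = 3) were 267 ± 16.9 and 304 ± 9.50 for Dclk2, 76.1 ± 22.2 and 157 ± 18.2 for Dclk1, and 11.3 ± 3.56 and 38.5 ± 7.57 for Dcx. The ranges of neighbouring genes did not meet: in the controls Dcx reached 14.2 at most and Dclk1 was at least 62.7, and with AAV-Sox11 the same bounds were 44.4 and 139.8. Dcx therefore remained the lowest of the 3. Its per-kilobase level stood above 6.97% of 15375 genes with a known length in the controls and above 27.0% with AAV-Sox11. Dclk1 moved from 41.3% to 61.7% and Dclk2 from 75.0% to 78.0%. Dcx made up 2.31% to 3.64% of the summed per-kilobase level of the family in the controls and 6.26% to 8.46% with AAV-Sox11, while the share of Dclk2 was 70.2% to 78.5% and 58.6% to 62.8%.

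The Dclk1 rise lay mostly in the transcript that encodes doublecortin-like, which already held 76.9% of the Dclk1 value in the controls. Its row, ENSMUST00000167204, starts at the first promoter, has 7 exons and leaves the gene early, before the kinase exons, so that 1035 of its 1089 coding bases were shared with the full-length row and 95 with the kinase row. It had 291, 497 and 317 in the controls and 818, 883 and 673 with AAV-Sox11. The lowest AAV-Sox11 library, C, was above the highest control, B. The row went from 369 ± 112 to 791 ± 108 (SD, n = 3), a 2.19-fold rise (log2 fold change 1.13 ± 0.21, SE, limma adjusted p = 0.0397 over all rows). This call ended without control A (0.102) or C (0.0659), without AAV-Sox11 A, B or C (0.102, 0.157 and 0.0856), and with the direction without spread (0.0683) or the sex index (0.229) as a covariate. In that fit 1.98% of rows were called, 0.52% as higher. The authors' deposited table gives it 1.10 and a false discovery rate of 0.000166.

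The full-length row, ENSMUST00000054237 (756 codons, 17 exons), carries both the doublecortin domains and the kinase. Its values were 61.2, 67.7 and 28.9 in the controls and 81.3, 120.5 and 98.5 with AAV-Sox11, without overlap. Its fold change was 1.98 with a 95% interval of 1.18 to 3.32, and it did not pass over all rows (limma adjusted p = 0.132). The authors' deposited table has it at 0.93 with a false discovery rate of 0.0409. The kinase row, ENSMUST00000070418 (422 codons, 14 exons), starts at the second promoter. It had 54.4, 74.5 and 44.4 in the controls and 67.8, 100.7 and 109.6 with AAV-Sox11, so that AAV-Sox11 A lay below control B. Its fold change of 1.60 (1.06 to 2.41) did not pass either (limma adjusted p = 0.176). With the sex index in the fit, the log2 fold change of the full-length row went from 0.99 to 0.22 and that of the kinase row from 0.68 to 0.10. Rows without overlap and with higher values in AAV-Sox11 made up 13.1% of all rows.

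**Figure D3:**
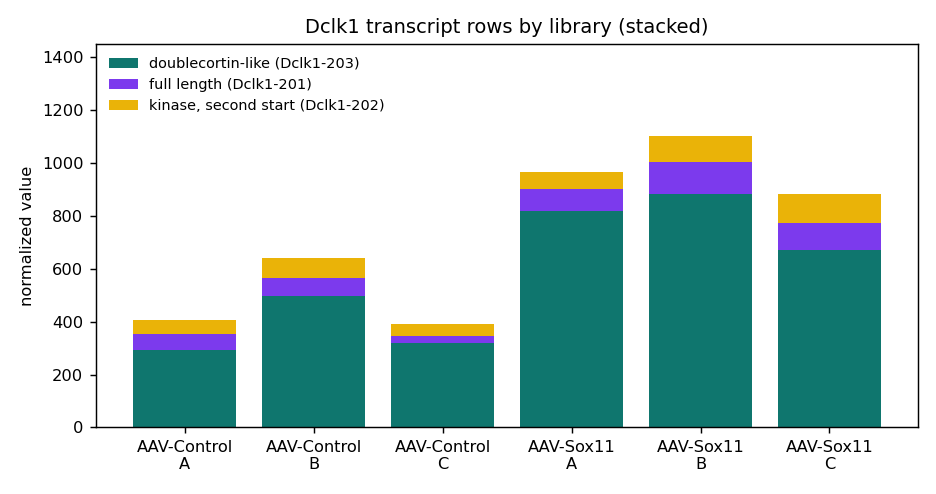
Normalized value (vertical axis) of the 3 Dclk1 transcript rows, stacked, in each of the 6 libraries. The doublecortin-like row fills most of each bar, from 71.6% in control A to 84.6% in AAV-Sox11 A, and the sum is 391 to 639 in the controls and 881 to 1104 with AAV-Sox11.

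The mix of Dclk1 transcripts did not differ detectably. The doublecortin-like row held 76.9% ± 4.88 of the Dclk1 value in controls, against 80.3% ± 4.12 in AAV-Sox11 libraries (SD, n = 3, exact permutation p = 0.5, two-sided). The kinase row from the second promoter held 12.1% ± 1.08 and 9.52% ± 2.74 (exact permutation p = 0.3). The full-length row held 11.0% ± 3.83 and 10.2% ± 1.53 (exact permutation p = 0.9). These shares were looked at after the values had been seen. The assignment of reads to rows also limits them. Of the exon bases, 78.7% of the doublecortin-like row, 5.69% of the kinase row and 0.612% (48 bases) of the full-length row lie in no other Dclk1 row. The end of the doublecortin-like coding sequence shows where it leaves the others. Lower case marks 12 bases shared with the full-length row, and capitals mark the 57 bases, stop codon included, that close its reading frame in place of the kinase.
Doublecortin-like coding end, ENSMUST00000167204: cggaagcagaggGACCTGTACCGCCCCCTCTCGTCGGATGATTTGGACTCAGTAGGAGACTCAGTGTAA

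In GRCm38 coordinates, Dcx spans chromosome X from 143855842 to 143933311 on the minus strand, with 6 annotated transcripts, of which ENSMUST00000033642 (7 exons, 9074 bases) is the row of the table. Dclk1 spans chromosome 3 from 55242364 to 55539068 on the plus strand, with 15 annotated transcripts, and Dclk2 the same chromosome from 86786151 to 86920852 on the minus strand, with 9, of which ENSMUST00000029719 (16 exons) is in the table. All 3 are protein-coding, and transcripts other than the 5 rows were not analysed here. No annotated gene overlaps Dcx. Exons of the antisense gene Gm42609 share 87 bases with the doublecortin-like and full-length rows of Dclk1, and those of Gm21954 share 27 bases with the kinase row. The sources used here do not state whether counting used strand, so reads from these short stretches may come from either strand.

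The promoters of the family are shown because Dcx and Dclk1 rose while Dclk2 did not pass the test, and because Dclk1 has more than 1. The sequences are from RefSeq (GRCm38.p6), 5′ to 3′ on the transcribed strand, and stop before the outermost annotated start. Each was searched on both strands for ACAAT and ACAAAG, short core sequences bound by Sox proteins. Capitals mark matches, as written here or as the reverse complement.
Dcx promoter 1: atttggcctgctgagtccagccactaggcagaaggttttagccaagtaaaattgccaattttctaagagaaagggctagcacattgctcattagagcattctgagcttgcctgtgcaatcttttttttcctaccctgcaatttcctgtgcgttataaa
Dclk1 promoter 1: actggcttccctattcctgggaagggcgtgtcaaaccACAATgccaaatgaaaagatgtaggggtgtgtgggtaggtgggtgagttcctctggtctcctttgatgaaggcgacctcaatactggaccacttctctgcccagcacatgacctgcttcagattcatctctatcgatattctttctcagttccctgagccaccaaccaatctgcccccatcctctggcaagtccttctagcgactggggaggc
Dclk1 promoter 2: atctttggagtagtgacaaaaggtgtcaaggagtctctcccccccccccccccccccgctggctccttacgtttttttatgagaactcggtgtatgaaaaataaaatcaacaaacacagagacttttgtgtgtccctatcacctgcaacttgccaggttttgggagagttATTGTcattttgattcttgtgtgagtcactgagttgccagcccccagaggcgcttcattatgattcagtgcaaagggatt
Dclk2 promoter 1: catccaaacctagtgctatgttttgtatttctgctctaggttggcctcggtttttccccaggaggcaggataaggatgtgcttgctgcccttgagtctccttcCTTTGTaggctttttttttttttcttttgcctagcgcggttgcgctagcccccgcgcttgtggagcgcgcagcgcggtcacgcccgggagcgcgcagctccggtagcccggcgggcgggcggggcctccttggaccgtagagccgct
The Dcx stretch is chrX:143933312-143933469 (minus strand, 158 bases) and held neither motif, whereas 27.9% of all promoters hold at least 1 in a stretch of that length. The Dclk1 stretches are chr3:55242114-55242363, upstream of the doublecortin-like and full-length rows, and chr3:55461478-55461727, upstream of the kinase row. Each of these 250-base stretches held 1 ACAAT match. The Dclk2 stretch, chr3:86920885-86921134, held 1 ACAAAG match. Among 32851 promoters, 38.8% held at least 1 of the motifs in 250 bases. A match is a string of letters and was not tested for binding.

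Markers of several retinal cell types were measured in the sorted cells. The summed value of 11 measured ganglion cell markers, of 12 listed, was 7282 to 10789 in the controls and 9110 to 11929 with AAV-Sox11, so the groups overlapped. Stmn2, a tubulin-binding growth cone protein, was the only one of the 11 called higher, and none was called lower. Pou4f2, a ganglion cell transcription factor, had 21.8 ± 10.9 and 58.6 ± 11.3, a log2 fold change of 1.47 (limma adjusted p = 0.0669). Slc17a6, the glutamate transporter of these cells, had 1188 ± 277 and 2404 ± 765, a log2 fold change of 0.99 (limma adjusted p = 0.0802). Rbpms, a marker of all ganglion cells, had 42.4 ± 12.9 and 41.8 ± 1.41. The neurofilament genes Nefl and Nefm and the transcription factor Isl1 had negative log2 fold changes of -0.33, -0.39 and -0.04, which did not pass either. Nefh, another neurofilament gene, had a positive log2 fold change of 0.77 (limma adjusted p = 0.0569). Pou4f1, Sncg and Thy1 were also positive, at 0.78, 0.59 and 0.37, and were not called. Relative to the summed list, the log2 level of Dcx was 1.57 higher and that of Dclk1 0.85 higher with AAV-Sox11, without overlap (exact permutation p = 0.1 each, 0.15 adjusted over 3 genes). For Dclk2 the difference was -0.03 (exact permutation p = 0.7). These sums lean on the abundant Nefl, Thy1 and Slc17a6, and this measure was chosen after the values had been seen.

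Among 10 further marker lists, the groups did not overlap for horizontal cells (10744 to 12146 in the controls, 6599 to 7377 with AAV-Sox11), bipolar cells (7566 to 10815 and 6396 to 7367) and microglia (1006 to 1954 and 672 to 961), all lower with AAV-Sox11. Their part in the Dcx and Dclk1 differences was not tested. Among all single genes, 30.7% did not overlap over both directions, and 14.4% were lower without overlap. The horizontal cell sum was almost wholly Prox1, which amacrine and bipolar cells also carry and which fell (11082 ± 624 to 6624 ± 364, limma adjusted p = 0.0153). Onecut1 was low in both groups, at 16.8 ± 0.559 and 14.7 ± 2.29, and Lhx1, Onecut2 and Gja10 had no row under these names in the authors' table. The sums of the amacrine, rod, cone, Muller glia, astrocyte, endothelial and T cell lists overlapped between the groups. In these 10 lists the only other call was that of Slc6a9, the glycine transporter of amacrine cells, which fell (limma adjusted p = 0.0481).

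Few genes of the lists around the family were called. Of 6 measured doublecortin-domain relatives, 1 fell, 0 rose and 5 did not pass. Their log2 fold changes were positive for 1 and negative for 5, with a median of -0.58, against 0.03 over all genes. Of all genes, 1.52% were called lower, 0.796% were called higher and 14.4% were lower without overlap. Over all 15450 genes, 8315 log2 fold changes were positive and 7135 negative. The same background holds for the lists below. The relative that fell was Dcdc5, annotated in GENCODE M21 as a pseudogene, from 342 ± 16.7 to 161 ± 17.1 (SD, n = 3, log2 fold change -1.09, limma adjusted p = 0.0153). Its span overlaps Dnajc24 on the other strand. Rp1 and Rp1l1, microtubule proteins of the photoreceptor outer segment, had 5127 ± 889 and 3379 ± 801, and 751 ± 278 and 465 ± 148. Neither passed, and the rod marker sum was 37813 to 59859 in the controls and 23600 to 43214 with AAV-Sox11. Dclk3, the remaining kinase of the family, was near the bottom of the table, with 23.3 ± 14.0 and 18.8 ± 2.79 (limma adjusted p = 0.859).

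Of 20 measured lissencephaly and nuclear migration genes, 1 fell and 0 rose. Log2 fold changes were positive for 15 and negative for 5, and the median was 0.12. Dab1, the adaptor that relays the reelin signal, fell from 3817 ± 96.5 to 2251 ± 108 (log2 fold change -0.76, limma adjusted p = 0.0132). Dync1h1, the heavy chain of cytoplasmic dynein, had 28206 ± 3603 and 37261 ± 2112 (log2 fold change 0.41, limma adjusted p = 0.0853). Kif5c, a kinesin heavy chain, had 11339.7 ± 1291 and 12854 ± 736 (limma adjusted p = 0.304). Pafah1b1, which encodes the dynein regulator Lis1, was not called either, with a log2 fold change of 0.02.

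Among 21 other neuronal microtubule-binding proteins, Map1b alone was called. Map1b, a large microtubule-associated protein of growing axons, rose from 26136 ± 2703 to 47719 ± 4957 (SD, n = 3), 1.83-fold (log2 fold change 0.87, limma adjusted p = 0.0201). The other 20 did not pass, among them Camsap2, which binds microtubule minus ends (8879 ± 913 and 9460 ± 510, limma adjusted p = 0.578), and the list median was 0.04, or -0.01 to 0.11 with single libraries left out. Without control A, Map1b also missed the threshold (limma adjusted p = 0.0560).

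None of the 18 measured partners and kinases of doublecortin was called, with 10 positive and 8 negative log2 fold changes and a median of 0.07. The lowest limma adjusted p in that list was 0.0817, that of Ppp1ca, a catalytic subunit of protein phosphatase 1 (log2 fold change 0.42). Gsk3b, a kinase of many microtubule proteins, had 10992 ± 824 and 12604 ± 1267, and Usp9x, a deubiquitinase that binds doublecortin, 10577 ± 739 and 13025 ± 426 (limma adjusted p = 0.283 and 0.0818).

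Of 11 measured relatives of the Dclk kinase domain among the CaM kinases, 2 fell and 0 rose, and the median was -0.11. Camkv, a kinase-like protein of neurons, fell from 5063 ± 168 to 3292 ± 50.7 (log2 fold change -0.62, limma adjusted p = 0.0153). Camk4, a nuclear calcium-responsive kinase, fell from 7251 ± 162 to 5410.4 ± 376 (log2 fold change -0.42, limma adjusted p = 0.0425). The call on Camk4 ended under median-of-ratios scaling (0.0508) and upper-quartile scaling (0.0572), and without any 1 control library (0.0535 to 0.0758). Antisense genes overlap Camkv and Camk4.

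**Figure D4:**
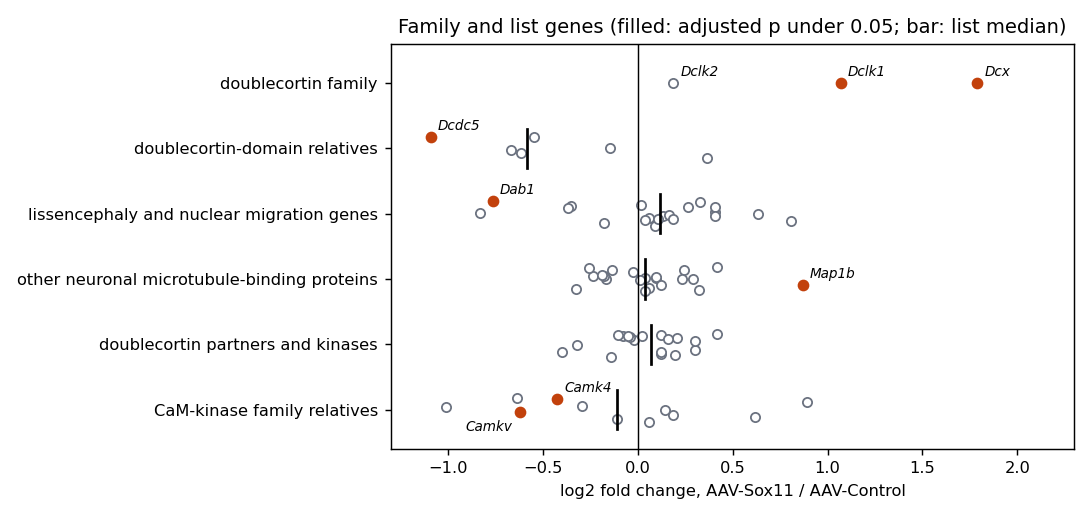
Log2 fold change (horizontal axis, AAV-Sox11 over AAV-Control) of the 3 family genes and of the measured genes of each list, filled and named where the limma adjusted p was under 0.05, with the list median as a black bar. Dcx at 1.79 lies beyond every list gene, and the list medians run from -0.58 to 0.12.

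The genes whose pattern over the 6 libraries was most like that of Dcx were Frmd8, Ide and Mettl9 (Pearson r of 0.998, 0.998 and 0.997). Their log2 fold changes were smaller, at 0.64, 0.39 and 0.31. For Dclk1 they were Hmbox1, Suco and Hrh2 (r = 0.999 each), and for Dclk2 Ppp1r3e, Tardbp and Zyg11b (r of 0.998, 0.998 and 0.997). Such likeness was common: of 11720 genes with a mean value of at least 50, 360 had r over 0.95 with Dcx, 417 with Dclk1 and 271 with Dclk2. These are the highest of many correlations over 6 libraries that share groups and scaling. The values also lack spread along 1 direction, which can raise such correlations. They are given as a description.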

How the data were processed

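RNA of sorted Thy1-positive retinal cells was measured in 6 libraries. CASAVA 1.8.2, edgeR (version not stated) and build mm10 stand in the submitters' processing notes. Aligner, counter, strand setting and annotation: not given in the sources used here. What the authors deposited is a single table with 26691 rows, keyed by Ensembl transcript. Per the file headers, it holds normalized values (a signal), the authors' log2 fold changes, and their p-values and false discovery rates. The deposited whole-number columns sum to 10747985 to 11546892 per library and are treated as a score, since 1 of the 5 directions in which 6 libraries can differ had an SD of 9.48e-05 natural log units, which read counting cannot give. These totals therefore stand for depth only approximately. The normalized signal is the deposited whole number times 1 factor per library (0.965 to 1.04). Columns are spelled plapcrush and sample titles plupcrush; both were read as AAV-Control.

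Normalized values were summed by gene name (357 rows had none) to 15450 genes. Tests used limma 3.58.1 (R 4.3.3) on log2(value + 1) with a trend, no covariate and Benjamini-Hochberg adjustment over all genes, or over all 26334 named rows; log2(value + 1) understates changes of low genes. The fit was tested on simulated data. Single ratios and shares were compared by two-sided exact permutation over libraries. The block on replicate letter rests on the shared preparation day. Deviations of same-letter libraries correlated at 0.0025, 0.793 and 0.236 for A, B and C. Those of different letters ran from -0.876 (control C with AAV-Sox11 B) to 0.198 (control C with AAV-Sox11 A). AAV-Sox11 B holds 57.7% of the squared weight of the direction without spread, so these correlations cannot tell whether the letters form pairs. Lengths came from GENCODE M21, matching 97.8% of rows. Named genes were all rows of the members, the called genes and the 2 of highest mean in each list, and the 3 most similar genes per member; Pafah1b1, Dclk3, Ppp1ca and the marker genes given singly were named after their values were seen. The members and lists were chosen with earlier results of these data known. Alternatives covered scaling, pseudocount, a filter on low values, robust variance, the replicate block, covariates and left-out libraries. A coding stretch shared by the members is not reported here.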

Additional observations from a re-analysis of the deposited data

How the results depend on the processing

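Scaling, pseudocount, a minimum mean value of 50, robust variance, use of the most abundant row only and the replicate block kept the calls on Dcx and Dclk1 and the lack of one on Dclk2, whose log2 fold change was 0.07 to 0.25 over all alternatives. With the replicate block, Dcx and Dclk1 had a limma adjusted p of 0.0285 each, and 737 genes and 1191 rows were called, against 358 and 521. With the direction without spread as a covariate, 0 genes (2582 at an unadjusted p under 0.05) and 52 rows were called, and Dcx and Dclk1, at 1.79 and 1.07, missed the threshold over genes, while the Dcx row passed over rows (limma adjusted p = 0.0386). With the sex index, 0 genes and 0 rows were called (2702 and 4364 unadjusted), and Dcx and Dclk1 were at 1.11 and 0.89. Without both libraries of A, B or C, 1, 1 and 0 genes and 1, 1 and 0 rows were called, with 2017 to 3092 genes at an unadjusted p under 0.05. Neither Dcx (2.06, 1.86 and 1.45) nor Dclk1 (0.98, 1.21 and 1.02) passed there, in fits with fewer samples. Leaving out 1 library gave 0 to 745 genes and 0 to 1015 rows, with 1.51 to 1.97 for Dcx and 0.94 to 1.30 for Dclk1. Library-total scaling called 106 genes higher and 356 lower, against 123 and 235. The log2 ratio difference of Dcx to Dclk1 was 0.43 to 1.08 and that of Dcx to Dclk2 1.32 to 1.81 over all alternatives, and within same-letter pairs (replicate block) they were 0.72 and 1.60, with an exact permutation p of 0.25, the smallest that 3 pairs can give.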
